A study of Caenorhabditis elegans with 24 samples.

Results

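The first exposure of *C. elegans* to hypoxia was compared with its normoxia control in whole worms of the P0 generation, the ones with no exposed ancestor in the experiment. The comparison takes 6 of the 24 RNA sequencing libraries of the study, chosen by their labels alone, and 13171 of the 46926 genes in the count table, namely those with at least 350 counts summed over these 6 libraries. All worms were wild type (N2 strain), grown in bulk on plates of OP50 bacteria at 20 °C and synchronized as eggs. In the hypoxia group, L4 larvae (the last larval stage) spent 16 hours at 0.1% oxygen. In the normoxia group, L4 larvae of the same generation spent the same 16 hours in an incubator with atmospheric oxygen. Each group had 3 biological replicates, numbered 1 to 3, and every list of values below follows that order. The study asked how the response to hypoxia changes when successive generations are exposed, and the first exposure is the starting point of that series. The labels name the worms by the L4 stage, at which the exposure began. Worms were washed off and frozen once the 16 hours were over, and per the labels the hypoxia worms were first put back in normal oxygen. How long they stayed there, and the stage they had reached, are not given in the sources used here. So a slower passage from larva to adult and a change of expression at a fixed stage cannot be told apart.

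Oxygen is sensed in the worm by EGL-9, a prolyl hydroxylase that marks the transcription factor HIF-1 for destruction through VHL-1. When oxygen is scarce HIF-1 escapes this mark, and its targets include enzymes of collagen hydroxylation, sulfide handling and glycolysis. The hours after the L4 stage are also those in which a hermaphrodite completes its sperm, switches its germ line to oocytes, makes its adult cuticle and begins to load yolk into oocytes.

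The libraries held 27210264 to 33841402 reads counted on genes. The median log2 fold change of all genes tested was -0.02, a value that the normalization itself holds near 0. A gene was called when the Benjamini-Hochberg adjusted p of edgeR's quasi-likelihood test, over all 13171 genes, was under 0.05. Levels are given as CPM (counts of a gene scaled to the library size after trimmed mean of M values normalization), and changes as log2 fold changes of hypoxia against normoxia ± SE with n = 3 libraries per group. The libraries of a group did not agree equally well. On log2 CPM, hypoxia replicates 1 and 3 had a Pearson correlation across genes of 0.993, and hypoxia replicate 2 of 0.958 with each of them. Normoxia replicates 2 and 3 correlated at 0.992, and normoxia replicate 1 with them at 0.969 to 0.976. For many gene lists the number of calls depended on single libraries, and where this number is repeated for the fits with 1 library left out, it is over the same members and threshold. In whole worms, fewer cells of a type and less RNA per cell cannot be told apart. An exact permutation test of 3 libraries against 3 cannot give a p under 0.1, so single genes rest on the spread that edgeR shares across genes.

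Of the genes tested, 1752 (13.3%) rose and 975 (7.40%) fell. The rises were larger, with a median log2 size of 1.57 against 1.04 for the falls, and 74.9% of them exceeded 2-fold against 52.3% of the falls. They were also less abundant, at a median of 8.35 CPM against 15.2 CPM. With each library left out in turn, 1148 genes were called higher and 281 lower in every fit. Leaving out hypoxia replicate 2 raised the counts to 2782 and 2191, and leaving out normoxia replicate 1 as well raised them to 3682 and 3194. Leaving out any one of the other 5 libraries lowered both. The falls numbered 743, 332 and 401 without normoxia replicates 1, 2 and 3, and 442 and 411 without hypoxia replicates 1 and 3, while the rises stayed at 1206 or more. As shares of all genes, 12.1%, 9.49% and 10.6% rose without normoxia replicates 1, 2 and 3 and 9.96%, 21.1% and 9.16% without hypoxia replicates 1, 2 and 3. The matching shares of falls were 5.64%, 2.52% and 3.04%, and 3.36%, 16.6% and 3.12%. Genes of the X chromosome stood out in the direction of change. Of 1760 tested X-linked genes 8.24% rose and 11.9% fell, while on the 5 autosomes 12.1 to 17.6% rose and 5.80 to 7.90% fell. Chromosome IV had the highest share of rises.

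**Figure D1:**
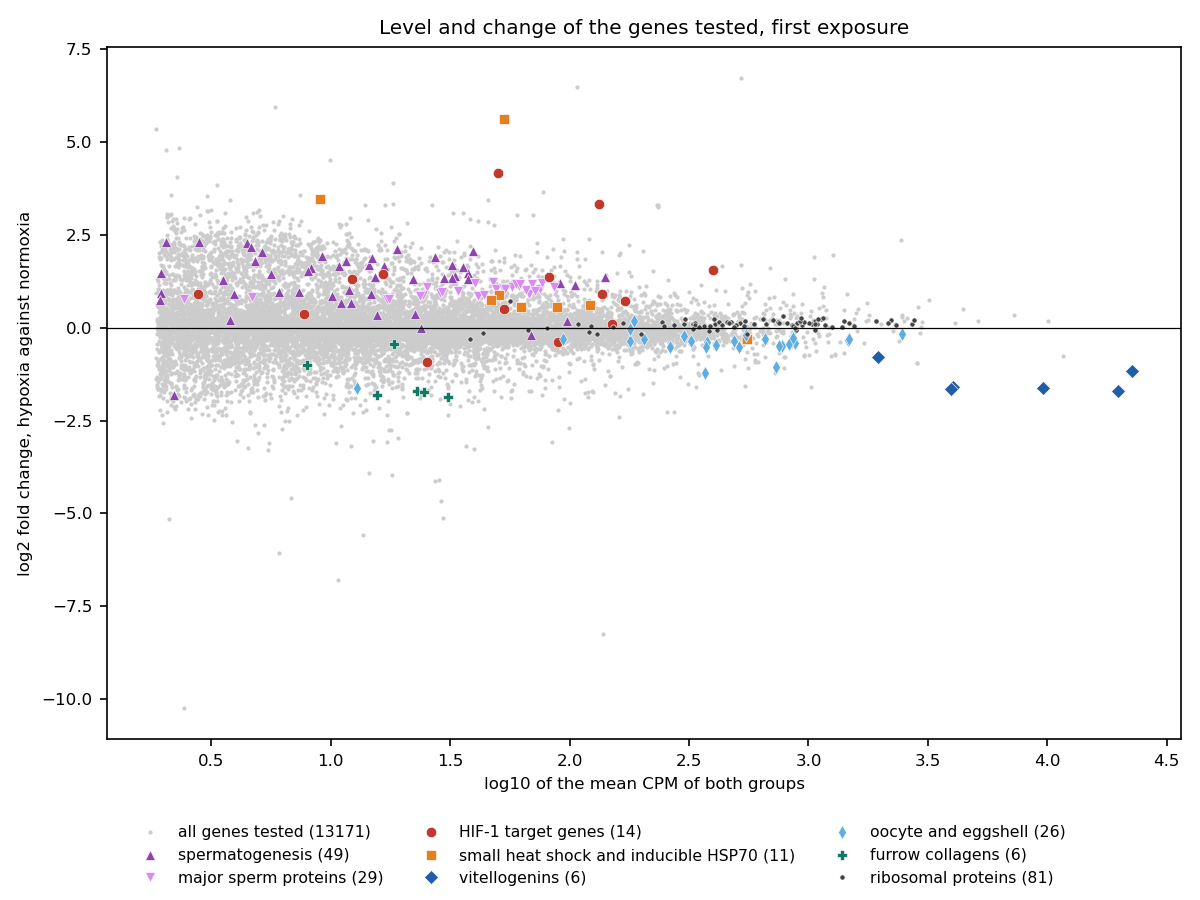
Each point is a gene tested in the first exposure, at the log10 of its mean CPM over both groups (horizontal axis) and its log2 fold change of hypoxia against normoxia (vertical axis). Of the sperm genes, all 29 major sperm protein genes and 46 of 49 others lie above 0, ribosomal protein genes lie between -0.29 and 0.71, and the 6 vitellogenins lie below 0 at the highest levels.

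Part of the HIF-1 target list rose strongly, while 1 gene of the HIF-1 pathway itself was called. Of the 8 pathway genes tested, 1 fell and none rose (median -0.06). *hif-1* mRNA stood at 223, 244 and 258 CPM in normoxia and 292, 227 and 285 CPM in hypoxia, a log2 fold change of 0.15 ± 0.13 (adjusted p = 0.442). *egl-9*, which is both the oxygen sensor and a HIF-1 target, had 42.2, 43.7 and 46.5 CPM in normoxia and 50.5, 74.0 and 62.7 CPM in hypoxia. Its groups did not overlap, but its log2 fold change of 0.50 ± 0.15 missed the threshold (adjusted p = 0.0549). *rhy-1*, which encodes a membrane protein that restrains HIF-1 and is itself a HIF-1 target, had 25.3, 39.4 and 35.1 CPM in normoxia and 6.57, 34.9 and 10.9 CPM in hypoxia. Hypoxia replicates 1 and 3 were lower than all normoxia libraries and replicate 2 lay among them, and without replicate 2 the gene was called at -1.93 (adjusted p = 0.00472). The gene that fell was *swan-1*, a WD40 protein, with a log2 fold change of -0.49 ± 0.09 (adjusted p = 0.0105). Its call was lost without normoxia replicate 2 or 3, where the adjusted p reached 0.0657.

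Of 14 HIF-1 target genes, 5 rose and none fell, against 13.3% and 7.40% of all genes, and the median was 0.91. In 9 of them the hypoxia libraries all lay above the normoxia libraries, which held for 20.6% of all genes. *phy-2* (WBGene00004025, chromosome IV from 12211097 to 12215987 of WBcel235), a catalytic subunit of collagen prolyl 4-hydroxylase, had 28.9, 20.4 and 22.1 CPM in normoxia and 196, 280.4 and 246 CPM in hypoxia. The 3 hypoxia libraries were far above the 3 normoxia libraries, and the log2 fold change was 3.34 ± 0.20 (adjusted p = 0.000582). *F22B5.4*, a HIF-1 target without an assigned role, had 3.26, 7.07 and 5.46 CPM in normoxia and 111, 47.8 and 126 CPM in hypoxia. Its groups did not overlap either, although hypoxia replicate 2 was the lowest of its group, and the log2 fold change was 4.17 ± 0.46 (adjusted p = 0.00121). *efk-1*, the kinase that inhibits translation elongation factor 2, had 154, 213 and 239.7 CPM in normoxia and 613, 505 and 667 CPM in hypoxia and rose by 1.56 ± 0.19 log2 units (adjusted p = 0.00195). *tyr-2*, a tyrosinase, had 49.3, 43.3 and 43.6 CPM in normoxia and 85.2, 160.5 and 109 CPM in hypoxia and rose by 1.38 ± 0.23 log2 units (adjusted p = 0.00627). In *tyr-2* hypoxia replicate 2 was the highest library, so that library did not lag in all targets. *sqrd-1*, a mitochondrial enzyme that oxidizes hydrogen sulfide, had 5.52, 9.90 and 10.98 CPM in normoxia and 16.05, 34.9 and 21.6 CPM in hypoxia. Its call at 1.46 ± 0.36 (adjusted p = 0.0324) was lost without normoxia replicate 1, 2 or 3 or hypoxia replicate 3, with an adjusted p of up to 0.0917. The other 4 kept their calls in all 6 fits that left out 1 library.

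Several genes often used as reporters of HIF-1 activity were not called. *nhr-57*, a nuclear hormone receptor, had 3.86, 8.89 and 8.43 CPM in normoxia and 10.9, 24.6 and 17.3 CPM in hypoxia, and *cysl-2*, a cysteine synthase family enzyme, had 47.7, 109 and 128 CPM in normoxia and 151, 196 and 186 CPM in hypoxia. Both were higher in each hypoxia library than in any normoxia library, with log2 fold changes of 1.32 ± 0.41 (adjusted p = 0.0644) and 0.91 ± 0.34 (adjusted p = 0.109). *fmo-2*, a flavin monooxygenase, had 7.81, 132 and 164 CPM in normoxia and 34.2, 148 and 49.3 CPM in hypoxia. Its groups overlapped, with normoxia replicate 1 low and hypoxia replicate 2 high (adjusted p = 0.806).

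**Figure D2:**
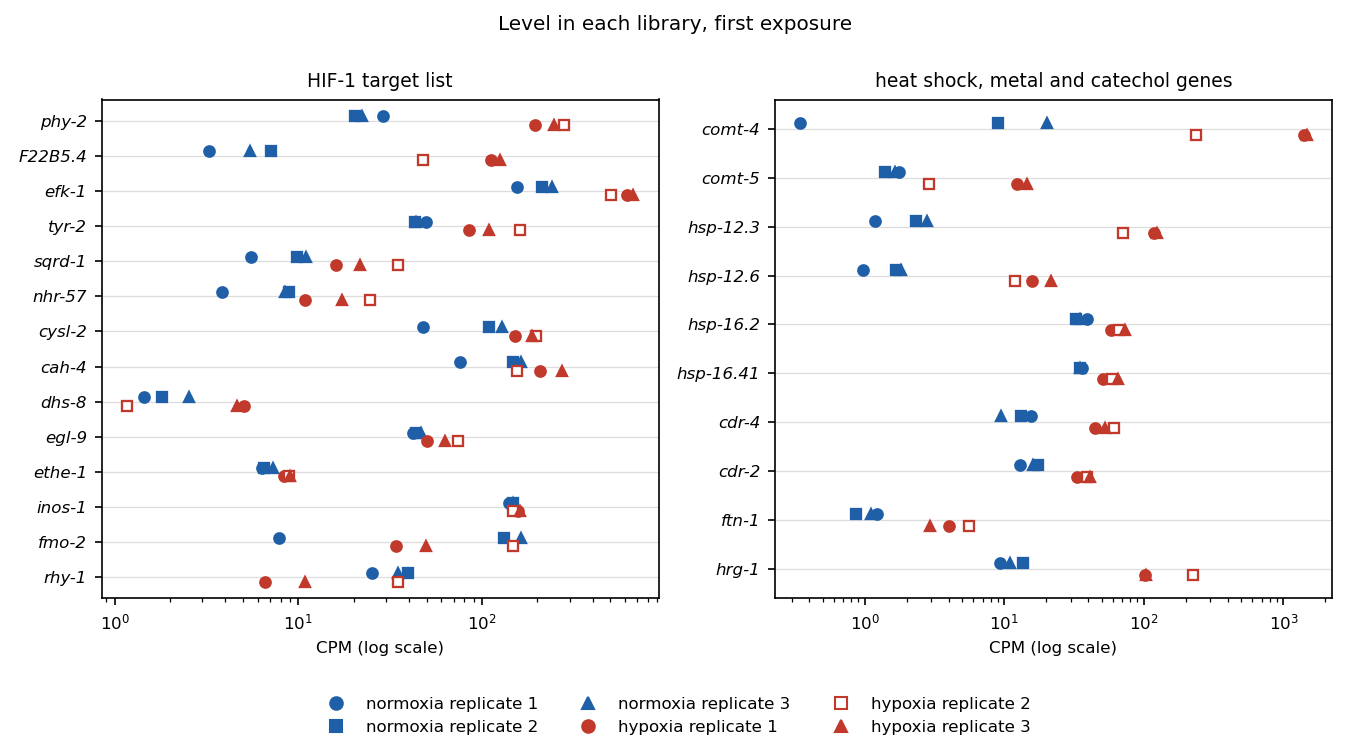
CPM on a log axis in each of the 6 libraries for the HIF-1 target list (left) and for genes of heat shock, metal response and catechol methylation (right). Blue symbols are normoxia and red symbols hypoxia, and hypoxia replicate 2 is the open square. In *phy-2*, *F22B5.4*, *efk-1*, *hsp-12.3* and *hrg-1* the groups are wide apart, and in *fmo-2* they overlap.

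In hydrogen sulfide and cysteine metabolism 42.1% of the genes rose, against 13.3% of all genes. Of 19 sulfide and cysteine genes 8 rose and 1 fell, the latter being *mpst-3* (median 0.39), and 6 of the rises held in every fit with 1 library left out. *cbs-2*, one of the cystathionine beta-synthases, had 3.98, 2.86 and 3.57 CPM in normoxia and 21.02, 17.7 and 21.3 CPM in hypoxia and rose by 2.53 ± 0.19 log2 units (adjusted p = 0.000582). Its relative *cbs-1*, named after its values were seen, rose by 1.09 ± 0.12 log2 units from a higher level, with 37.4, 34.95 and 32.7 CPM in normoxia and 64.3, 79.96 and 79.9 CPM in hypoxia. *mpst-4*, a mercaptopyruvate sulfurtransferase, rose by 2.37 ± 0.18 log2 units (adjusted p = 0.000582), and *cysl-4*, a cysteine synthase family member, by 2.32 ± 0.25 (adjusted p = 0.00117). The groups of all 4 genes were separate, and hypoxia replicate 2 lay with the other hypoxia libraries.

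Of the 5 collagen prolyl and lysyl hydroxylase genes, 4 rose. Besides *phy-2*, *dpy-18*, the other main catalytic subunit, had 71.9, 54.5 and 57.05 CPM in normoxia and 148, 170.4 and 156 CPM in hypoxia and rose by 1.37 ± 0.13 log2 units (adjusted p = 0.000841). *let-268*, the lysyl hydroxylase needed for basement membrane collagen, had 31.1, 29.7 and 30.2 CPM in normoxia and 46.4, 41.5 and 50.7 CPM in hypoxia and rose by 0.61 ± 0.10 log2 units (adjusted p = 0.0074). *phy-3*, another prolyl hydroxylase, which overlaps *clec-40*, rose by 1.295 ± 0.24 log2 units at a low level and lost its call only without normoxia replicate 2 (adjusted p = 0.0568). *pdi-2*, the partner subunit shared by these enzymes, had 978, 617 and 601 CPM in normoxia and 525, 654 and 565 CPM in hypoxia and was not called (adjusted p = 0.311).

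Among the enzymes of carbohydrate metabolism, 9 of glycolysis rose, most of them by less than 2-fold, beside single genes of gluconeogenesis and of trehalose and glycogen synthesis. Of 19 glycolysis genes 9 rose and none fell (median 0.48), and 5 of these rose in every fit with 1 library left out. The rises numbered 8, 5 and 6 without normoxia replicates 1, 2 and 3 and 6, 10 and 6 without hypoxia replicates 1, 2 and 3. *pfk-1.2*, a phosphofructokinase of sperm, had 4.01, 3.07 and 3.87 CPM in normoxia and 13.8, 14.8 and 13.5 CPM in hypoxia and rose most, by 1.94 ± 0.17 log2 units (adjusted p = 0.000708). The glyceraldehyde 3-phosphate dehydrogenases *gpd-2* and *gpd-3*, near-identical copies whose reads may have been split between them, rose by 1.19 ± 0.17 log2 units (adjusted p = 0.00347) and 1.32 ± 0.22 (adjusted p = 0.00669). *gpd-3* had 416, 506 and 445 CPM in normoxia and 1251, 794 and 1376 CPM in hypoxia, with hypoxia replicate 2 between the groups. The aldolase *aldo-1* rose by 0.86 ± 0.11 log2 units (adjusted p = 0.00255). The lactate dehydrogenase *ldh-1* rose by 0.48 ± 0.13 log2 units, at 73.2, 60.2 and 54.05 CPM in normoxia and 84.97, 82.4 and 93.2 CPM in hypoxia. Its adjusted p was 0.0425 and reached 0.139 with 1 library left out, and *aldo-1* and *ldh-1* were named after their values were seen. *ldh-1* was not called without normoxia replicate 2 or 3 or hypoxia replicate 1 or 3.

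In the gluconeogenesis list of 6 genes 2 rose, both of them phosphoenolpyruvate carboxykinases (median 0.81). *pck-1* had 244, 405 and 368 CPM in normoxia and 1137, 729.6 and 1244 CPM in hypoxia and rose by 1.61 ± 0.27 log2 units (adjusted p = 0.0066). *pck-3* had 5.68, 4.11 and 5.73 CPM in normoxia and 21.8, 23.4 and 21.99 CPM in hypoxia and rose by 2.11 ± 0.17 log2 units (adjusted p = 0.000674), with replicates that agreed closely. In the trehalose and glycogen list, 3 of 13 genes rose although the median was -0.20. *tps-2*, a trehalose 6-phosphate synthase that overlaps *arl-3*, had 69.1, 79.2 and 85.7 CPM in normoxia and 381, 207 and 394 CPM in hypoxia and rose by 2.07 ± 0.26 log2 units (adjusted p = 0.00189), and *gyg-1*, the glycogenin that primes glycogen, rose by 1.27 ± 0.21 log2 units (adjusted p = 0.0068). The third was *gob-1*, a trehalose phosphatase. *pck-1*, *pck-3*, *tps-2* and *gyg-1* kept their calls in every fit with 1 library left out.

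Respiratory chain genes were called higher about as often as all genes (13.3%). Of 44 nuclear-encoded respiratory chain genes 6 (13.6%) rose and none fell, with a median of 0.15, and the rises numbered 6, 1 and 2 without normoxia replicates 1, 2 and 3 and 1, 13 and 1 without hypoxia replicates 1, 2 and 3. Of 26 genes of pyruvate dehydrogenase and the TCA cycle 6 rose and 1 fell (median 0.20), and none of these calls held in every fit with 1 library left out. Without hypoxia replicate 2 there were 10 rises and 3 falls, and without normoxia replicate 2 or 3 or hypoxia replicate 1 or 3 there were 0 of each. The TCA cycle gene that fell was *idhg-2*, an isocitrate dehydrogenase subunit. Both cytochrome c genes rose. *cyc-2.2* had 3.57, 3.14 and 3.001 CPM in normoxia and 7.21, 8.20 and 8.33 CPM in hypoxia and rose by 1.29 ± 0.17 log2 units (adjusted p = 0.00253), while the far more abundant *cyc-2.1* had 391, 401 and 434 CPM in normoxia and 810.2, 531 and 811 CPM in hypoxia and rose by 0.81 ± 0.18 log2 units, a call lost without normoxia replicate 2 or hypoxia replicate 1 or 3 (adjusted p up to 0.0816). Of 11 protein-coding genes of the mitochondrial genome, *COX3* (cytochrome oxidase subunit III) was the 1 that rose, by 0.74 ± 0.16 (adjusted p = 0.0206), and the list median was 0.49. The *COX3* call was lost without normoxia replicate 2 or 3 or hypoxia replicate 1 or 3 (adjusted p up to 0.099). Of 14 globins 2 (14.3%) rose, a share near that of all genes. They were *glb-1*, by 0.76 ± 0.15 (adjusted p = 0.0125), and *glb-15*, which overlaps *nlp-24*, by 1.80 ± 0.39 (adjusted p = 0.0204). The *glb-15* call was lost without normoxia replicate 3 or hypoxia replicate 1 or 3 (adjusted p up to 0.0744).

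In fat metabolism, 2 desaturases and 2 elongases rose, and genes of breakdown went both ways. Of 22 synthesis genes 4 (18.2%) rose, against 13.3% of all genes (median 0.43), all in every fit with 1 library left out. *fat-1*, the omega-3 desaturase, had 442, 558 and 547 CPM in normoxia and 2548, 1197 and 2323 CPM in hypoxia and rose by 1.97 ± 0.30 log2 units (adjusted p = 0.00431). The delta-9 desaturase *fat-6*, the last of the 4 and named after its values were seen, had 274, 514 and 557 CPM in normoxia and 1941, 1044 and 2027 CPM in hypoxia (adjusted p = 0.0113). In both, hypoxia replicate 2 lay at about the middle between the groups and above every normoxia library. The elongases *elo-7* and *elo-8* rose by 2.07 ± 0.31 log2 units (adjusted p = 0.00425) and 2.099 ± 0.18 (adjusted p = 0.000674) at low levels, and in them hypoxia replicate 2 lay with the others. Without hypoxia replicate 2, when 21.1% of all genes were called higher, 10 of the synthesis genes were.

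Of 39 beta-oxidation genes 9 (23.1%) rose and 2 (5.13%) fell (median 0.37), against 13.3% and 7.40% of all genes. The rises depended on single libraries, with 6, 4 and 4 without normoxia replicates 1, 2 and 3 and 3, 18 and 3 without hypoxia replicates 1, 2 and 3, and 3 held in every fit. *acox-1.5*, a peroxisomal acyl-CoA oxidase, had 50.7, 59.5 and 44.5 CPM in normoxia and 5.59, 17.3 and 7.41 CPM in hypoxia and fell (log2 fold change -2.35 ± 0.42, adjusted p = 0.00891). *acdh-2*, an acyl-CoA dehydrogenase overlapping *ins-13*, had 10.1, 6.20 and 6.42 CPM in normoxia and 99.5, 11.1 and 82.3 CPM in hypoxia. Its log2 fold change was 3.09 ± 0.75 (adjusted p = 0.0295), hypoxia replicate 2 was close to the normoxia libraries, and the call was lost when any library other than that one was left out (adjusted p up to 0.106). Of 10 lipases 2 fell, *lipl-1* and *lipl-7*, and none rose (median -0.57). *lipl-1*, a lysosomal lipase, had 10.9, 34.7 and 20.1 CPM in normoxia and 1.96, 2.91 and 2.41 CPM in hypoxia and fell (log2 fold change -3.17 ± 0.44, adjusted p = 0.00313), with its groups apart.

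Most small heat shock and inducible HSP70 genes rose. Of 11 small heat shock and inducible HSP70 genes 8 rose and none fell (median 0.61), with 4, 4 and 4 without normoxia replicates 1, 2 and 3 and 7, 8 and 6 without hypoxia replicates 1, 2 and 3. *hsp-12.3* (WBGene00002012, chromosome IV from 9444791 to 9445507), a small heat shock protein, had 1.19, 2.33 and 2.79 CPM in normoxia and 118, 71.2 and 125 CPM in hypoxia. It rose by 5.63 ± 0.38 log2 units (adjusted p = 0.000582), and all 3 hypoxia libraries were far above normoxia. Its neighbor *hsp-12.6*, at chromosome IV from 9446229 to 9447228, had 0.972, 1.67 and 1.83 CPM in normoxia and 15.9, 11.9 and 21.6 CPM in hypoxia and rose by 3.46 ± 0.34 log2 units (adjusted p = 0.000871). The heat-inducible *hsp-16* genes rose far less. *hsp-16.2* had 39.0, 32.8 and 35.1 CPM in normoxia and 57.9, 66.4 and 73.8 CPM in hypoxia and rose by 0.89 ± 0.12 log2 units (adjusted p = 0.00281), and *hsp-16.41* rose by 0.74 ± 0.11 log2 units (adjusted p = 0.00442). The near-identical copies *hsp-16.1* and *hsp-16.11* rose by 0.61 ± 0.16 and 0.62 ± 0.15 log2 units, calls that were lost without normoxia replicate 1, 2 or 3 (adjusted p up to 0.106 and 0.0992).

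Of 9 mitochondrial unfolded protein response genes 2 (22.2%) rose and 1 (11.1%) fell, against 13.3% and 7.40% of all genes, led by the mitochondrial HSP70 *hsp-6*, with 661, 564 and 575 CPM in normoxia and 1177, 961 and 1243 CPM in hypoxia and a rise of 0.91 ± 0.14 log2 units (adjusted p = 0.00535). The others were *dnj-10*, which rose, and *ubl-5*, which fell. Of 14 endoplasmic reticulum stress genes 2 (14.3%) rose, *xbp-1* and *ckb-2*, and none fell (median -0.05). The *abu* and *pqn* genes encode proteins rich in glutamine and asparagine and include genes of pharyngeal cuticle. Of 59 of them 16 (27.1%) rose and 4 (6.78%) fell. The rises numbered 14, 12 and 14 without normoxia replicates 1, 2 and 3 and 12, 22 and 12 without hypoxia replicates 1, 2 and 3, and the falls 1, 0 and 1 without normoxia replicates 1, 2 and 3 and 0, 11 and 3 without hypoxia replicates 1, 2 and 3. Of 15 antioxidant enzymes 1 (6.67%) rose, the thioredoxin *trx-2*, against 13.3% of all genes. None of these enzymes was called when any one library other than hypoxia replicate 2 was left out. Of 25 glutathione S-transferases 2 (8.0%) rose, *gsto-1* and *gstk-2*, and 1 (4.0%) fell, *gstk-1*. Of these 3 calls 1, a rise, held in every fit with 1 library left out.

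Of 12 metal response genes 4 rose and none fell (median 0.84), and all 4 held in every fit with 1 library left out. *cdr-4*, a cadmium-responsive gene, had 15.6, 13.3 and 9.45 CPM in normoxia and 44.4, 61.4 and 52.3 CPM in hypoxia and rose by 2.05 ± 0.22 log2 units (adjusted p = 0.00107), and *cdr-2* rose by 1.29 ± 0.15 log2 units (adjusted p = 0.00155). *ftn-1*, the intestinal ferritin, had 1.22, 0.871 and 1.11 CPM in normoxia and 4.03, 5.61 and 2.92 CPM in hypoxia and rose by 1.96 ± 0.31 log2 units (adjusted p = 0.00551). *hrg-1*, a heme transporter outside this list and among the largest rises of all, had 9.31, 13.7 and 10.98 CPM in normoxia and 101, 226 and 104 CPM in hypoxia. It rose by 3.66 ± 0.37 log2 units (adjusted p = 0.00096), and hypoxia replicate 2 was its highest library.

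Among enzymes that modify small molecules, 2 of 3 catechol O-methyltransferases rose, one of them by more than any other gene called. *comt-4* (WBGene00021491, chromosome V from 2049217 to 2050185), a catechol O-methyltransferase family member, had 0.345, 9.02 and 20.1 CPM in normoxia and 1409, 236 and 1467 CPM in hypoxia. Both groups were widely spread, normoxia replicate 1 and hypoxia replicate 2 being the lowest of each, but they did not overlap, and the log2 fold change was 6.72 ± 1.41 (adjusted p = 0.0169). The call was lost without normoxia replicate 2 or hypoxia replicate 3 (adjusted p up to 0.0783). *Y40B10A.10* overlaps *comt-4*, so its rise of 6.49 ± 1.21 log2 units cannot be told apart from that of *comt-4*, and its call was lost without normoxia replicate 2 (adjusted p = 0.056). The neighboring *comt-5* had 1.76, 1.39 and 1.65 CPM in normoxia and 12.29, 2.88 and 14.6 CPM in hypoxia and rose by 2.63 ± 0.58 log2 units (adjusted p = 0.0206), with hypoxia replicate 2 near normoxia. Its call was lost without any single library other than that one (adjusted p up to 0.0787).

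Of 39 cytochrome P450 genes 7 (17.9%) rose and 1 (2.56%) fell, against 13.3% and 7.40% of all genes. *cyp-14A4* (WBGene00011009, chromosome X from 13282043 to 13284197) had 0.188, 0.279 and 0.0900 CPM in normoxia and 8.97, 14.7 and 10.9 CPM in hypoxia and rose by 5.95 ± 0.40 log2 units (adjusted p = 0.000582). *cyp-35C1*, named after its values were seen, had 20.1, 6.97 and 6.27 CPM in normoxia and 58.3, 110.0 and 72.6 CPM in hypoxia and rose by 2.85 ± 0.51 log2 units (adjusted p = 0.00891). The member that fell was *cyp-14A5*, with 17.2, 112 and 85.7 CPM in normoxia and 6.23, 9.18 and 7.11 CPM in hypoxia and a log2 fold change of -3.26 ± 0.65 (adjusted p = 0.0143). In *cyp-14A5* normoxia replicate 1 was low, and the call was lost without hypoxia replicate 1 or 3 (adjusted p up to 0.0651). Of 51 UDP-glucuronosyltransferases, which conjugate sugars to small molecules, 11 (21.6%) rose and 4 (7.84%) fell (median 0.48), so the share of falls was near that of all genes. The rises numbered 16, 8 and 8 without normoxia replicates 1, 2 and 3 and 7, 18 and 7 without hypoxia replicates 1, 2 and 3. *ugt-33* had 1.19, 1.05 and 1.2004 CPM in normoxia and 17.8, 6.05 and 17.5 CPM in hypoxia and rose by 3.58 ± 0.45 log2 units (adjusted p = 0.00202). *ugt-31* had 13.2, 136 and 86.1 CPM in normoxia and 11.8, 15.5 and 9.91 CPM in hypoxia, with normoxia replicate 1 inside the hypoxia range, and its call as lower (log2 fold change -2.66 ± 0.75, adjusted p = 0.0481) was lost in every fit with 1 library left out except that without normoxia replicate 1 (adjusted p up to 0.158). Of 5 flavin monooxygenases 2 rose, and *fmo-4* had 35.9, 47.5 and 44.4 CPM in normoxia and 113, 118 and 144 CPM in hypoxia and rose by 1.56 ± 0.15 log2 units (adjusted p = 0.00079). The other was *fmo-3*, with a rise of 1.56 ± 0.36 log2 units that was lost without normoxia replicate 2 or 3 or hypoxia replicate 1 or 3 (adjusted p up to 0.0941).

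Of 89 C-type lectins, a family with members in defense against microbes, 10 (11.2%) rose and 17 (19.1%) fell (median -0.21), against 13.3% and 7.40% of all genes, so the share of rises was near the background. The falls numbered 12, 5 and 8 without normoxia replicates 1, 2 and 3 and 9, 24 and 7 without hypoxia replicates 1, 2 and 3, and 5 held in every fit. Rises numbered 19 without hypoxia replicate 2, when 21.1% of all genes were called higher and 16.6% lower. Without any other library they numbered 9 or 8. *clec-119* had 3.26, 2.68 and 2.46 CPM in normoxia and 13.6, 14.6 and 13.8 CPM in hypoxia and rose by 2.32 ± 0.17 log2 units (adjusted p = 0.000582). *clec-78*, named after its values were seen, had 34.6, 49.9 and 59.99 CPM in normoxia and 19.2, 5.43 and 15.1 CPM in hypoxia and fell (log2 fold change -1.86 ± 0.45, adjusted p = 0.0294). The *clec-78* call was lost without normoxia replicate 2 or 3 or hypoxia replicate 3 (adjusted p up to 0.0859). *cnc-4*, a caenacin antimicrobial peptide of the epidermis, had 2.73, 3.59 and 3.57 CPM in normoxia and 26.5, 40.1 and 32.6 CPM in hypoxia and rose by 3.32 ± 0.21 log2 units (adjusted p = 0.000582), the 1 rise (1.96%) among 51 antimicrobial peptide genes, of which *fipr-1*, *fipr-10* and *nlp-27* (5.88%) fell. Without hypoxia replicate 2, 9 of these 51 peptide genes were called higher and 4 lower, when 21.1% and 16.6% of all genes were. *lys-3*, a lysozyme, had 1.07, 1.01 and 1.83 CPM in normoxia and 9.51, 3.79 and 8.96 CPM in hypoxia and rose by 2.50 ± 0.43 log2 units (adjusted p = 0.00781).

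In several of the largest falls the normoxia libraries disagreed. *irg-1*, a gene named for its induction by infection, had 11.57, 76.8 and 66.0 CPM in normoxia and 2.13, 3.93 and 2.77 CPM in hypoxia. The hypoxia libraries were close to each other and below all normoxia libraries, normoxia replicate 1 was far below the other normoxia libraries, and the log2 fold change was -4.13 ± 0.72 (adjusted p = 0.008). *C34H4.1* had 14.5, 72.1 and 73.8 CPM in normoxia and 2.67, 3.53 and 3.21 CPM in hypoxia and fell (log2 fold change -4.09 ± 0.63, adjusted p = 0.00459). *parg-2*, a poly(ADP-ribose) glycohydrolase, had 4.45, 44.2 and 31.2 CPM in normoxia and 0.440, 0.838 and 0.387 CPM in hypoxia and fell (log2 fold change -5.59 ± 0.92, adjusted p = 0.0063). These 3 genes and the acyltransferase family gene *oac-32*, with 9.53, 97.6 and 65.1 CPM in normoxia and 0.406, 4.26 and 0.417 CPM in hypoxia, all had their lowest normoxia level in replicate 1. *D1086.3* was the opposite, with 31.8, 5.68 and 1.92 CPM in normoxia and 0.339, 0.765 and 0.536 CPM in hypoxia, so its highest normoxia level was in replicate 1. The calls of *oac-32* (-5.11 ± 1.21, adjusted p up to 0.0926) and *D1086.3* (-4.59 ± 1.11, adjusted p up to 0.109) were lost without hypoxia replicate 1 or 3, and for *oac-32* also without normoxia replicate 2 or 3. *T22F3.11* had 10.82, 307 and 507 CPM in normoxia and 1.32, 0.146 and 1.19 CPM in hypoxia, again with replicate 1 far below the other normoxia libraries. Its log2 fold change was -8.25 ± 1.56, a call lost without hypoxia replicate 3 (adjusted p = 0.0546).

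Most sperm genes tested rose. Of 29 major sperm protein genes 27 rose and none fell (median 1.03), and in all 29 the hypoxia libraries lay above the normoxia libraries, against 20.6% of all genes tested. Major sperm protein is both the cytoskeletal protein of the crawling sperm and the signal that matures oocytes. The genes are near-identical copies, so the reads of one cannot be told from those of another, and the family is best read as a sum. The summed level in CPM was 838, 851 and 930.0 in normoxia and 1629, 1951 and 1838 in hypoxia. The 3 hypoxia libraries were all above the 3 normoxia libraries and the groups were far apart compared with the spread inside them. As single examples, *msp-56* had 27.2, 26.5 and 31.99 CPM in normoxia and 58.5, 79.6 and 62.3 CPM in hypoxia, and *msp-10* rose by 1.21 ± 0.13 log2 units (adjusted p = 0.00108).

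Of 49 other spermatogenesis genes 40 rose and 1 fell (median 1.36). With 1 library left out the number of rises ranged from 34 to 42, and 34 rose in every fit. *spe-10*, a palmitoyltransferase of the sperm's membranous organelles, had 1.19, 1.67 and 1.71 CPM in normoxia and 7.35, 7.76 and 7.11 CPM in hypoxia and rose by 2.28 ± 0.21 log2 units (adjusted p = 0.00079). *spe-42* and *spe-49*, membrane proteins needed at fertilization, rose by 2.32 ± 0.27 log2 units (adjusted p = 0.00142) and 2.32 ± 0.32 (adjusted p = 0.00277), and *spe-49* overlaps *srn-1*. *gsp-3* and *gsp-4*, near-identical sperm-specific protein phosphatases, were named after their values were seen. *gsp-3* had 17.5, 17.7 and 17.3 CPM in normoxia and 48.9, 57.5 and 56.4 CPM in hypoxia. *gsp-4* had 13.7, 16.03 and 15.8 CPM in normoxia and 46.4, 47.2 and 53.5 CPM in hypoxia. The rises were 1.63 ± 0.10 log2 units (adjusted p = 0.000582) and 1.69 ± 0.12 (adjusted p = 0.000582), several times the spread inside each group. The 1 gene of this list that fell was *ssp-37*, with 3.10, 3.31 and 3.87 CPM in normoxia and 0.948, 0.984 and 1.01 CPM in hypoxia and a log2 fold change of -1.80 ± 0.22 (adjusted p = 0.00172).

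Of 19 Argonaute genes 4 rose and 2 fell, *alg-2* and *nrde-3*, against 13.3% and 7.40% of all genes. *alg-3*, which binds small RNAs of spermatogenesis, had 11.9, 10.802 and 10.804 CPM in normoxia and 52.4, 58.6 and 58.0 CPM in hypoxia. Its partner *alg-4* had 14.6, 14.2 and 12.304 CPM in normoxia and 57.7, 66.8 and 63.3 CPM in hypoxia. Both rose, by 2.33 ± 0.10 and 2.19 ± 0.11 log2 units (adjusted p = 0.000582 for each). *wago-10* had 6.05, 5.12 and 4.95 CPM in normoxia and 26.3, 24.6 and 30.9 CPM in hypoxia and rose by 2.34 ± 0.16 log2 units (adjusted p = 0.000582), and *ppw-2*, named after its values were seen, rose by 0.88 ± 0.14 log2 units (adjusted p = 0.00604) from a higher level. All 4 rises held in every fit with 1 library left out, but neither fall did. The falls numbered 2, 0 and 0 without normoxia replicates 1, 2 and 3. Without hypoxia replicates 1, 2 and 3 they numbered 1, 5 and 2. The median of all Argonautes was -0.07.

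Of 16 genes of germline sex determination 2 rose and 1 fell, *tra-2* (median -0.13), shares just under the 13.3% and 7.40% of all genes. Without hypoxia replicate 2 there were 4 rises and 6 falls, when 21.1% and 16.6% of all genes were called higher and lower. Without any other library no gene of the list was called lower, so the *tra-2* call was lost in those fits. *tra-1*, the zinc finger factor that ends the sex determination pathway and promotes the female fate, had 113, 114.5 and 105 CPM in normoxia and 167, 145 and 159 CPM in hypoxia and rose by 0.50 ± 0.09 log2 units (adjusted p = 0.0105). *fbf-1*, which encodes an RNA-binding repressor that maintains germline stem cells, rose by 0.50 ± 0.11 log2 units (adjusted p = 0.0171), a call lost without normoxia replicate 2 or 3 or hypoxia replicate 1 (adjusted p up to 0.0715).

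Yolk protein genes, which made up a large share of the reads in normoxia, differed strongly between the hypoxia libraries. The summed level of the 6 vitellogenins in CPM was 105590.0, 90255 and 76109 in normoxia and 23930.0, 56604 and 19274 in hypoxia. All hypoxia libraries were below all normoxia libraries in this sum, but hypoxia replicate 2 was more than 2 times the other hypoxia libraries. *vit-2* had 30142, 33612 and 30287 CPM in normoxia and 13885, 16843 and 11062 CPM in hypoxia and fell (log2 fold change -1.17 ± 0.29, adjusted p = 0.0317). *vit-6* had 31851, 31553 and 27689.5 CPM in normoxia and 6568, 15742 and 5528 CPM in hypoxia and fell (log2 fold change -1.71 ± 0.46, adjusted p = 0.0407). Both calls were lost without normoxia replicate 2 or 3 or hypoxia replicate 1 or 3, that of *vit-6* also without normoxia replicate 1, with an adjusted p of up to 0.18 and 0.162. In *vit-3*, *vit-4* and *vit-5*, near-identical genes, the disagreement was stronger. *vit-3* (chromosome X from 3567355 to 3572549) had 10406, 4730.0 and 2975 CPM in normoxia and 189, 5653 and 191 CPM in hypoxia, so hypoxia replicate 2 was inside the normoxia range and the other hypoxia libraries far below it. *vit-1* had 5431, 1465 and 558 CPM in normoxia and 182, 3997 and 129 CPM in hypoxia. The groups of *vit-1*, *vit-3* and *vit-4* overlapped through hypoxia replicate 2 alone, and without it the log2 fold changes were -4.001 (adjusted p = 0.028), -4.99 (adjusted p = 0.0027) and -4.67 (adjusted p = 0.00488). Without hypoxia replicate 2, when 16.6% of all genes were called lower, all 6 vitellogenins were called lower, and with it 2. *F59D8.3*, which overlaps *vit-4*, showed the same split with 366, 128 and 76.7 CPM in normoxia and 1.93, 173 and 1.99 CPM in hypoxia, and its reads cannot be told from those of *vit-4*.

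The oocyte and eggshell genes had the same arrangement with smaller sizes. Of 26 genes 3 fell and none rose (median -0.36). In the fit without hypoxia replicate 2, when 16.6% of all genes were called lower, 21 of the 26 were. *perm-2*, which overlaps *C44B12.6*, and *perm-4*, proteins of the eggshell's permeability barrier, were below normoxia in all hypoxia libraries. *perm-4* had 1008, 1016 and 943 CPM in normoxia and 452, 546 and 426 CPM in hypoxia and fell (log2 fold change -1.06 ± 0.13, adjusted p = 0.00198), and *perm-2* fell (log2 fold change -1.21 ± 0.14, adjusted p = 0.00154). The third was *cpg-3*, a chondroitin proteoglycan (log2 fold change -0.51 ± 0.14, adjusted p = 0.0469). Its call was lost without any one library other than hypoxia replicate 2 (adjusted p up to 0.172). *rme-2*, the yolk receptor of oocytes, had 1113, 865 and 838 CPM in normoxia and 663, 1084 and 584 CPM in hypoxia, and *lin-41*, which holds oocytes in prophase, had 661, 599 and 550.0 CPM in normoxia and 366, 549 and 359 CPM in hypoxia. In both of these, which were named after their values were seen and were not called, hypoxia replicates 1 and 3 were below every normoxia library. Hypoxia replicate 2 was within or close to the normoxia range.

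**Figure D3:**
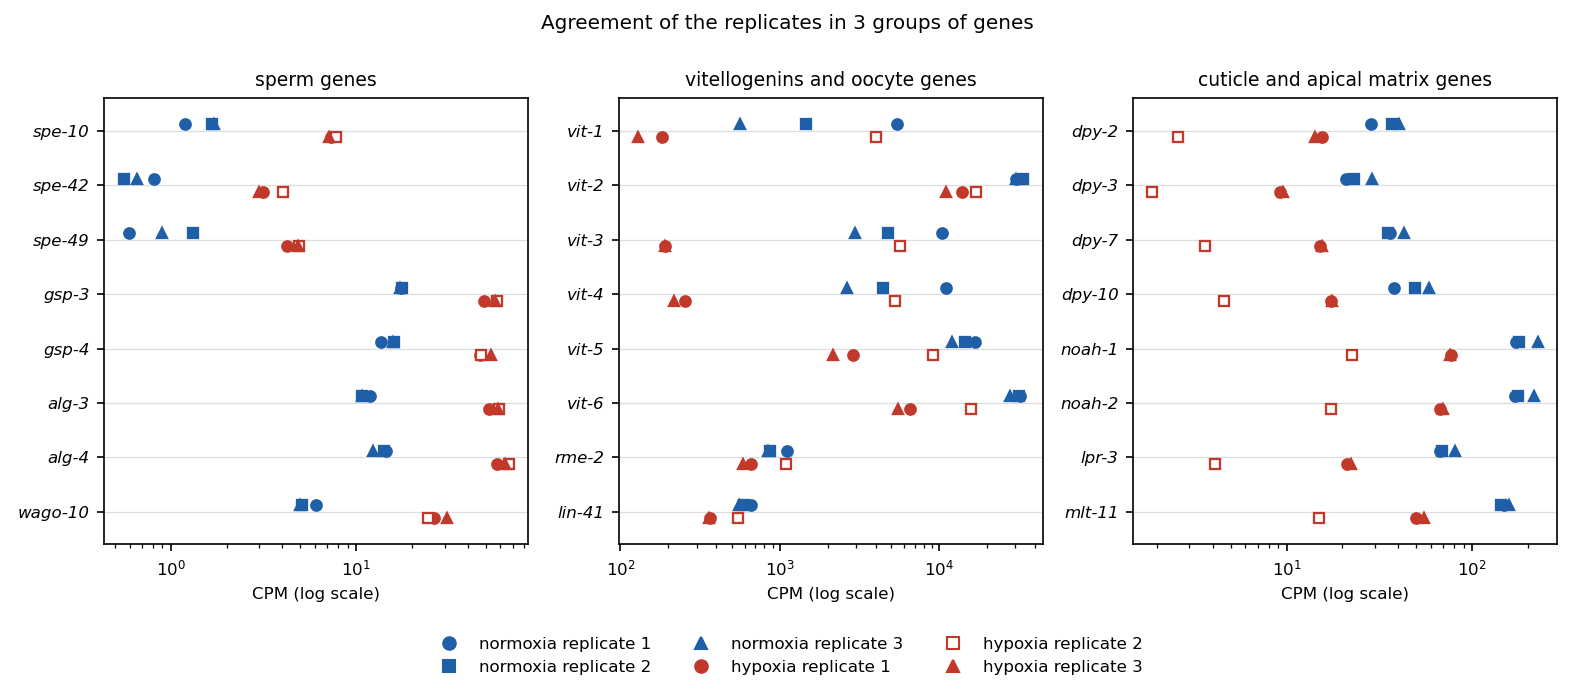
CPM on a log axis in each library for sperm genes, for vitellogenins and oocyte genes, and for genes of cuticle and apical matrix. Blue symbols are normoxia and red symbols hypoxia, and hypoxia replicate 2, the open square, lies with its group in sperm genes, among or near normoxia in most yolk and oocyte genes, and beyond its group in the furrow collagens and matrix genes shown.

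The same split ran through genes of cell division. Of 27 DNA replication genes 1 fell, and all 27 had negative log2 fold changes (median -0.24). In the fit without hypoxia replicate 2, when 16.6% of all genes were called lower, 18 of the 27 were. The gene that fell was *cdt-1*, a replication licensing factor, with 63.6, 61.96 and 67.0 CPM in normoxia and 43.7, 53.7 and 40.5 CPM in hypoxia and a log2 fold change of -0.48 ± 0.12 (adjusted p = 0.0334). Of 32 mitosis and spindle checkpoint genes *klp-18* rose and *cyb-3* fell, and 15 were called lower without hypoxia replicate 2. *cyb-3*, cyclin B3, had 1126, 1010.5 and 896 CPM in normoxia and 507, 772 and 487 CPM in hypoxia. The calls of *cdt-1* and *cyb-3* held only in the fit without hypoxia replicate 2 among the 6 that left out 1 library (adjusted p up to 0.155 and 0.148). No germ granule gene of 19 and none of 12 germline markers was called by edgeR with all 6 libraries, with medians of -0.14 and -0.10. At an unadjusted p under 0.05 there were 3 and 1, and DESeq2 called 1 and 1 lower. The fit without hypoxia replicate 2 called 7 and 5 lower and none higher. Of 16 apoptosis and engulfment genes 4 fell and none rose, and the falls numbered 3, 1 and 2 without normoxia replicates 1, 2 and 3 and 1, 8 and 1 without hypoxia replicates 1, 2 and 3. They were the DNases *nuc-1*, with 66.9, 65.5 and 63.5 CPM in normoxia and 34.8, 45.2 and 34.9 CPM in hypoxia, and *crn-6*, the scramblase-like *ced-8* and the Bcl-2 family member *ced-9*, the last named after its values were seen. The log2 fold changes were -0.77 ± 0.12 for *nuc-1* (adjusted p = 0.00553), -1.71 ± 0.34 for *crn-6* (adjusted p = 0.0142), -1.35 ± 0.29 for *ced-8* (adjusted p = 0.0194) and -0.41 ± 0.11 for *ced-9* (adjusted p = 0.0362). Of these the *nuc-1* call held in every fit with 1 library left out. The others reached an adjusted p of 0.0673, 0.0902 and 0.165, and each was lost without normoxia replicate 2 or hypoxia replicate 1 or 3, *ced-8* and *ced-9* also without normoxia replicate 3 and *ced-9* without normoxia replicate 1.

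Of 43 histone genes 10 (23.3%) rose and 4 (9.3%) fell, against 13.3% and 7.40% of all genes. The rises numbered 5, 3 and 5 without normoxia replicates 1, 2 and 3 and 3, 17 and 2 without hypoxia replicates 1, 2 and 3, and 2 held in every fit. Of the 4 that fell, 3 were among the 7 linker histone H1 genes tested (*his-24* and *hil* genes), a subgroup formed after the values were seen, of which the other 4 were not called. The fourth was the core histone gene *his-68*. *his-24* had 279, 308 and 354 CPM in normoxia and 106, 79.4 and 88.98 CPM in hypoxia and fell (log2 fold change -1.78 ± 0.15, adjusted p = 0.000674), and *hil-2* and *hil-3* fell, with log2 fold changes of -1.51 ± 0.13 (adjusted p = 0.000708) and -1.27 ± 0.15 (adjusted p = 0.00147). All 3 agreed in every hypoxia library and held in every fit with 1 library left out. *his-10*, a histone H4 gene, had 0.188, 0.558 and 0.540 CPM in normoxia and 7.35, 1.89 and 9.49 CPM in hypoxia and rose by 3.86 ± 0.70 log2 units (adjusted p = 0.00976). Core histone genes exist in near-identical copies and most of their mRNAs lack a poly(A) tail, while the libraries were made from poly(A) RNA, so these low levels are uncertain. Of 47 histone methyltransferases and demethylases 2 (4.26%) rose and 6 (12.8%) fell, against 13.3% and 7.40% of all genes. The falls numbered 3, 1 and 2 without normoxia replicates 1, 2 and 3. Without hypoxia replicates 1, 2 and 3 they numbered 3, 15 and 3, when 3.36%, 16.6% and 3.12% of all genes were called lower. *jmjd-1.1*, a demethylase family member, had 0.721, 1.29 and 1.05 CPM in normoxia and 5.35, 4.44 and 5.71 CPM in hypoxia and rose by 2.34 ± 0.28 log2 units (adjusted p = 0.00157). The H3K27 demethylase genes *jmjd-3.2* and *utx-1* fell, with log2 fold changes of -1.43 ± 0.33 (adjusted p = 0.0254) and -0.65 ± 0.14 (adjusted p = 0.0171), *utx-1* being named after its values were seen. Both lost their calls without normoxia replicate 2 or 3, with an adjusted p of up to 0.0985 and 0.0875. The *jmjd-3.2* call was also lost without hypoxia replicate 3, and that of *utx-1* without normoxia replicate 1 or hypoxia replicate 1.

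Cuticle genes and genes of the epidermis that makes it were called lower more often than higher in most lists. These lists share some members, such as *ptr-4* in the molting and hedgehog-related lists. An exception was a list of 14 other collagens that shape the body. Of these 1 (7.14%) rose and none fell (median 0.21), and the rise did not hold in every fit with 1 library left out. All 6 furrow collagens, which build the circumferential grooves of the cuticle, had negative log2 fold changes (median -1.71), and 1 fell. In 5 of the 6 the hypoxia libraries were all below the normoxia libraries, against 19.7% of all genes. *dpy-10* had 37.8, 49.4 and 58.3 CPM in normoxia and 17.4, 4.63 and 17.6 CPM in hypoxia and fell (log2 fold change -1.87 ± 0.48, adjusted p = 0.0354). *dpy-7* had 35.96, 35.02 and 42.8 CPM in normoxia and 15.1, 3.64 and 15.5 CPM in hypoxia (adjusted p = 0.0502). Hypoxia replicate 2 was the lowest library of each furrow collagen, and the hypoxia libraries were far apart. Without it 4 were called lower at smaller sizes, *dpy-7* at -1.31 (adjusted p = 0.00115) and *dpy-2* at -1.24 (adjusted p = 0.00334). *dpy-8* was an exception, at 25.3, 19.1 and 19.2 CPM in normoxia and 12.56, 6.48 and 28.3 CPM in hypoxia, with overlapping groups.

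Of 20 cuticlins 6 fell and none rose (median -0.95), and of 25 genes of molting proteases and the apical matrix 3 rose and 7 fell. The falls of cuticlins numbered 6, 2 and 2 without normoxia replicates 1, 2 and 3 and 3, 10 and 3 without hypoxia replicates 1, 2 and 3. Those of molting genes numbered 2, 0 and 0 without normoxia replicates 1, 2 and 3 and 2, 11 and 3 without hypoxia replicates 1, 2 and 3. *noah-1* and *noah-2*, proteins of the temporary matrix under a forming cuticle, fell, with log2 fold changes of -1.72 ± 0.44 (adjusted p = 0.0347) and -1.86 ± 0.48 (adjusted p = 0.0365). *noah-1*, named after its values were seen, had 171, 179.7 and 225 CPM in normoxia and 76.8, 22.6 and 75.6 CPM in hypoxia. *lpr-3*, a lipocalin of the same matrix, had 66.9, 68.9 and 80.5 CPM in normoxia and 21.1, 4.12 and 22.1 CPM in hypoxia and fell (log2 fold change -2.19 ± 0.56, adjusted p = 0.0342), and *mlt-11*, a protease inhibitor required for molting, fell (log2 fold change -1.91 ± 0.44, adjusted p = 0.0246). Their groups did not overlap and hypoxia replicate 2 was the lowest library in each. The calls of *dpy-10*, *mlt-11*, *noah-1*, *noah-2* and *lpr-3* were lost without normoxia replicate 2 or 3 or hypoxia replicate 1, and all but *mlt-11* also without hypoxia replicate 3. For *noah-1*, *noah-2* and *lpr-3* they were lost without normoxia replicate 1 as well. The adjusted p then reached 0.0941 for *dpy-10*, 0.0638 for *mlt-11*, 0.0903 for *noah-1*, 0.0917 for *noah-2* and 0.0851 for *lpr-3*.

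Other collagens went both ways. Of 120 *col* genes 11 (9.17%) rose and 16 (13.3%) fell, against 13.3% and 7.40% of all genes. The falls numbered 9, 4 and 12 without normoxia replicates 1, 2 and 3 and 7, 32 and 4 without hypoxia replicates 1, 2 and 3, and 3 held in every fit. *col-146* had 31.4, 26.3 and 32.1 CPM in normoxia and 132, 171 and 171 CPM in hypoxia and rose by 2.40 ± 0.14 log2 units (adjusted p = 0.000582), and *col-14*, named after its values were seen, rose by 2.01 ± 0.18 log2 units (adjusted p = 0.000716). *col-120* had 39.1, 34.3 and 28.7 CPM in normoxia and 1.12, 10.2 and 1.67 CPM in hypoxia and *col-88* had 43.0, 29.3 and 20.2 CPM in normoxia and 1.29, 8.52 and 1.16 CPM in hypoxia, and both fell, with log2 fold changes of -2.98 ± 0.80 (adjusted p = 0.0415) and -3.09 ± 0.81 (adjusted p = 0.0387). In these 2 genes hypoxia replicate 2 lay between the groups, and the calls held only in the fit without it (adjusted p otherwise up to 0.12 and 0.103).

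Some markers of the epidermis fell. Of 6 seam cell markers 4 fell and none rose (median -1.07), and of 7 hypodermis markers 3 fell, *elt-1*, *lin-26* and *wrt-2*, and 4 were not called (median -0.71). The falls of seam cell markers numbered 2, 1 and 1 without normoxia replicates 1, 2 and 3 and 3, 3 and 1 without hypoxia replicates 1, 2 and 3, and those of hypodermis markers 1, 1 and 1 without normoxia replicates 1, 2 and 3 and 2, 5 and 1 without hypoxia replicates 1, 2 and 3. Seam cells are the stem-like cells along each side of the epidermis that divide before each molt. *egl-18*, a GATA factor of seam cells, had 66.1, 69.4 and 65.5 CPM in normoxia and 31.96, 30.3 and 30.5 CPM in hypoxia and fell (log2 fold change -1.12 ± 0.08, adjusted p = 0.000582). Its relative *elt-6* fell (log2 fold change -0.90 ± 0.24, adjusted p = 0.043), and *ceh-16*, the engrailed homolog of seam cells that overlaps *polk-1*, fell as well (log2 fold change -1.24 ± 0.34, adjusted p = 0.043). *elt-1*, the GATA factor that specifies the epidermis, had 21.1, 20.9 and 25.1 CPM in normoxia and 14.2, 10.6 and 11.5 CPM in hypoxia and fell (log2 fold change -0.89 ± 0.16, adjusted p = 0.0094). The calls of *egl-18* and *elt-1* held in every fit with 1 library left out. Those of *elt-6* and *ceh-16* were lost without normoxia replicate 2 or 3 or hypoxia replicate 3 (adjusted p up to 0.139 and 0.155), that of *elt-6* also without normoxia replicate 1 and that of *ceh-16* without hypoxia replicate 2. Of 14 genes that time the molts 1 rose and 1 fell, 7.14% each (median -0.13). *nhr-25*, a nuclear receptor of molting, had 18.03, 19.8 and 25.99 CPM in normoxia and 13.4, 6.41 and 11.01 CPM in hypoxia and fell, with a log2 fold change of -1.05 ± 0.29 and an adjusted p of 0.0452 that reached 0.128 and stayed under the threshold only without hypoxia replicate 1 or 2. *lin-29*, the heterochronic factor of the switch from larva to adult in the epidermis, had 12.8, 11.2 and 8.82 CPM in normoxia and 21.1, 20.7 and 23.7 CPM in hypoxia and rose by 0.997 ± 0.17 log2 units (adjusted p = 0.00752). Hedgehog-related genes, many of them made in the epidermis, were called lower in 13 (24.1%) and higher in 3 (5.56%) of 54 cases (median -0.37), against 7.40% and 13.3% of all genes. The falls numbered 6, 1 and 2 without normoxia replicates 1, 2 and 3 and 2, 19 and 3 without hypoxia replicates 1, 2 and 3, and 1 held in every fit. *wrt-10*, with 22.8, 24.4 and 26.4 CPM in normoxia and 9.38, 2.70 and 9.31 CPM in hypoxia, was among the falls (log2 fold change -1.78 ± 0.44, adjusted p = 0.0307), a call lost without any one library other than hypoxia replicate 2 (adjusted p up to 0.0836). It is also in the seam cell list, so its fall is counted in both.

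None of 30 FMRFamide-like neuropeptide genes was called by edgeR in the comparison of all 6 libraries, but 9 had an unadjusted p under 0.05, DESeq2 called 5 higher and limma voom with library weights 26, the median was 0.64 and 29 of them had positive log2 fold changes. *flp-18* had 9.47, 14.3 and 14.4 CPM in normoxia and 26.4, 11.1 and 30.7 CPM in hypoxia and *flp-1* had 13.98, 15.9 and 18.2 CPM in normoxia and 30.8, 15.04 and 38.2 CPM in hypoxia, both named after their values were seen. In each, hypoxia replicates 1 and 3 were above all normoxia libraries and hypoxia replicate 2 was inside the normoxia range. Without that library, when 21.1% of all genes were called higher, 24 of the family were. Of 14 neuron markers 1 rose and 1 fell, 7.14% each, and 12 were not called (median 0.15). *ida-1*, a protein of neuronal dense-core vesicles, had 46.6, 60.2 and 69.5 CPM in normoxia and 163, 80.8 and 183 CPM in hypoxia and rose by 1.27 ± 0.31 log2 units (adjusted p = 0.0302), which was lost without any library but hypoxia replicate 2 (adjusted p up to 0.0987). *unc-119*, expressed throughout the nervous system, had 14.5, 16.6 and 17.8 CPM in normoxia and 8.36, 8.27 and 10.4 CPM in hypoxia and fell (log2 fold change -0.85 ± 0.16, adjusted p = 0.012). The *unc-119* call was lost without normoxia replicate 2 or hypoxia replicate 1 (adjusted p up to 0.0555).

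Of 14 insulin-like peptide genes *ins-37* rose by 1.67 ± 0.28 log2 units (adjusted p = 0.00727) and *ins-34* fell (log2 fold change -1.96 ± 0.27, adjusted p = 0.00277). *ins-34*, which overlaps *nkcc-1*, had 4.17, 5.58 and 6.27 CPM in normoxia and 1.12, 1.27 and 1.70 CPM in hypoxia. None of 13 genes of the insulin receptor pathway was called by edgeR or DESeq2 with all 6 libraries, and 0 had an unadjusted p under 0.05. The fit without hypoxia replicate 2 called 1 of them higher and 2 lower, when 21.1% and 16.6% of all genes were. Limma voom with library weights called 2 higher and 5 lower. Of 15 AMPK and TOR pathway genes *aak-1*, a catalytic subunit of the energy sensor AMPK that overlaps *sma-2*, rose by 0.63 ± 0.08 log2 units (adjusted p = 0.0023), at 36.999, 40.7 and 40.2 CPM in normoxia and 62.5, 59.9 and 60.7 CPM in hypoxia. Of 151 nuclear hormone receptors 16 (10.6%) rose and 5 (3.31%) fell, against 13.3% and 7.40% of all genes. The rises numbered 7, 3 and 9 without normoxia replicates 1, 2 and 3 and 3, 37 and 2 without hypoxia replicates 1, 2 and 3.

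No ribosomal protein or proteasome gene was called by edgeR in the comparison of all 6 libraries, of 81 and 31 tested, and the medians were 0.10 and -0.14. At an unadjusted p under 0.05 there were 2 and 4 genes, and DESeq2 called 1 of each list, higher. The limma fit that gave hypoxia replicate 2 and normoxia replicate 1 less weight called 60 ribosomal protein genes higher and 13 proteasome genes lower, so small changes in these abundant genes depended on how the 2 libraries were weighted. Of 41 translation factors *eif-3.G* rose and *ife-4* fell. Among tissue markers outside the epidermis, 2 of 7 pharynx muscle markers (28.6%), *myo-1* and *myo-2*, rose, against 13.3% of all genes. The list median was -0.02, with 3 of 7 log2 fold changes above 0. Both calls were lost without any one library other than hypoxia replicate 2. Of 12 intestine markers 1 (8.33%) fell, against 7.40% of all genes. None of 12 body wall muscle markers was called by edgeR with all 6 libraries (median -0.21), 3 had an unadjusted p under 0.05, and DESeq2 called 2 higher. The fit without hypoxia replicate 2 called 1 higher and 5 lower, when 21.1% and 16.6% of all genes were. Limma voom with library weights called 3 higher and 7 lower. The intestine marker was the peptide transporter *pept-1*, with 195, 89.8 and 82.1 CPM in normoxia and 53.7, 38.7 and 46.4 CPM in hypoxia, which fell (log2 fold change -1.404 ± 0.35, adjusted p = 0.0311) and lost its call without hypoxia replicate 1 or 3 (adjusted p up to 0.103).

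**Figure D4:**
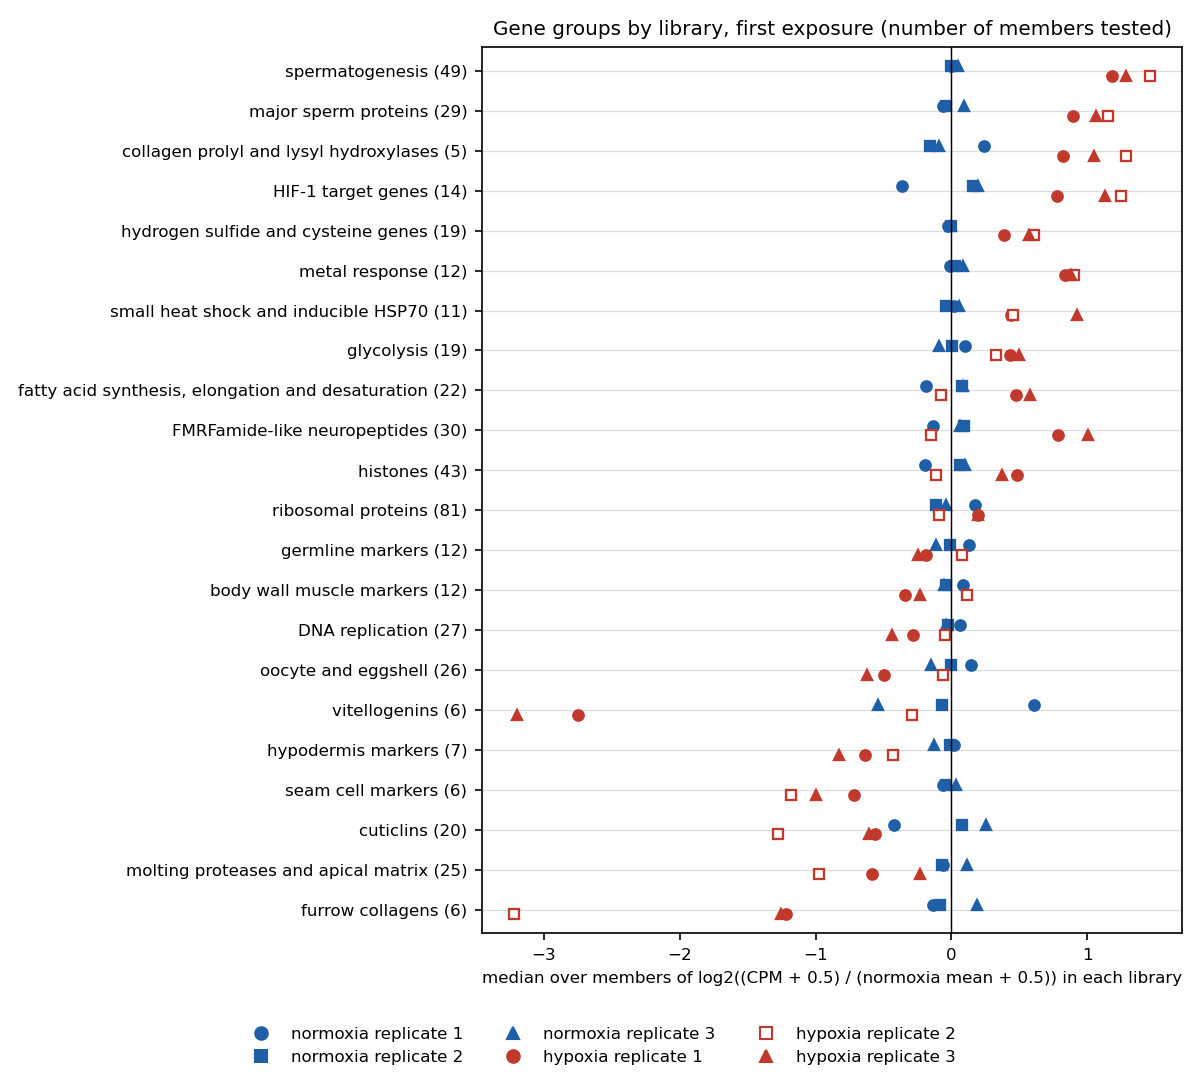
For 22 gene groups (number of members tested in parentheses), each symbol is 1 library at the median over members of log2((CPM + 0.5) / (normoxia mean + 0.5)). Blue symbols are normoxia and red symbols hypoxia, with hypoxia replicate 2 as the open square. Sperm genes sit together near 1 or above in all hypoxia libraries, FMRFamide-like neuropeptides and vitellogenins are split by hypoxia replicate 2, and furrow collagens are lowest in it.

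Hypoxia replicate 2 lagged in some gene groups and went further in others. For each gene called in the fit without it, its log2 CPM was expressed as a share of the way from the normoxia mean (0) to the mean of hypoxia replicates 1 and 3 (1). The median share was 0.718 over 2782 genes called higher and 0.487 over 2191 called lower, and 461 and 352 of these genes lay beyond the normoxia mean, on the far side from hypoxia. For the other hypoxia libraries, treated in the same way, the medians were 0.864 to 1.08. Those fits kept replicate 2 and called fewer genes. Without replicates 1 and 3 they called 1312 and 1206 genes higher and 442 and 411 lower. The gene sets differ, so these medians cannot be compared directly with those of replicate 2. By gene group the shares spread widely. The share was 1.21 over 28 major sperm protein genes, 1.03 over 44 spermatogenesis genes, 1.18 over 7 metal response genes and 0.797 over 7 HIF-1 targets. It was 0.121 over 6 vitellogenins, 0.146 over 21 oocyte and eggshell genes, 0.180 over 18 replication genes and -0.134 over 24 neuropeptide genes. It was 1.75 over 10 cuticlins and 2.24 over 15 molting genes. In the larger *col* family of cuticle collagens it was 0.602 over 45 genes, of which 7 lay beyond the normoxia mean. At the median the library thus lay with or beyond its group in sperm and metal genes, cuticlins and molting genes, between the groups in *col* genes, and near normoxia in yolk, oocyte, replication and neuropeptide genes.

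**Figure D5:**
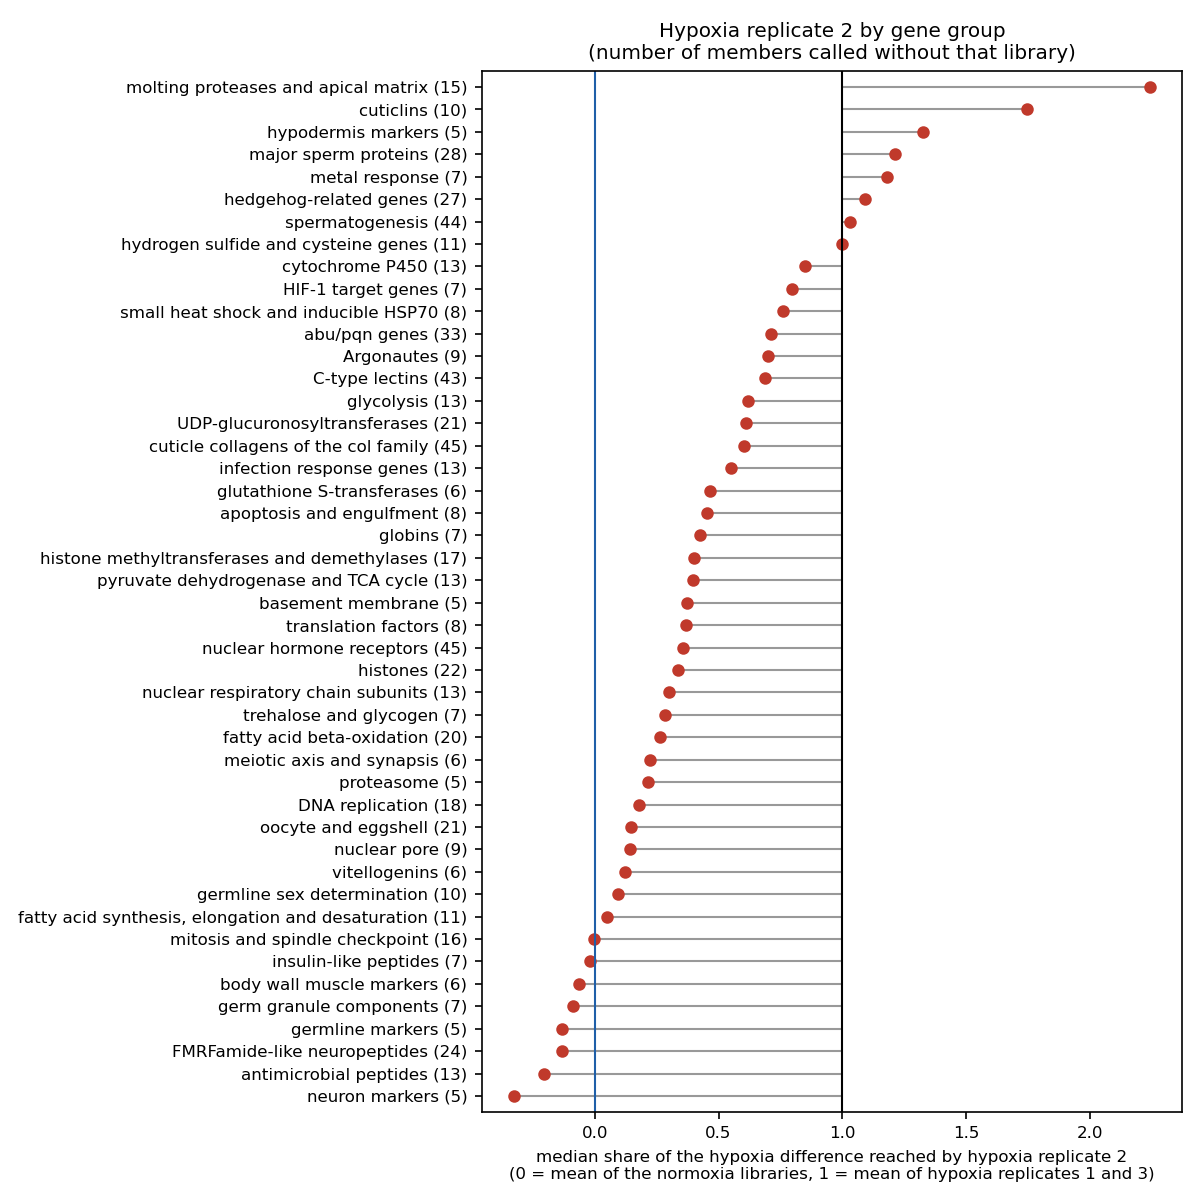
Median share of the hypoxia difference reached by hypoxia replicate 2, for gene groups with at least 5 members called in the fit without that library (number in parentheses). The blue line at 0 marks the mean of the normoxia libraries and the black line at 1 the mean of hypoxia replicates 1 and 3. Groups run from molting genes at 2.24 to neuron markers at -0.327.

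Normoxia replicate 1 was placed in the same way, on the genes called without it. Over 1599 genes called higher without it, its median share of the difference was 1.01, and over 743 genes called lower it was 0.764. Groups in which it fell short included UDP-glucuronosyltransferases (0.4996 over 22 genes), cytochrome P450 genes (0.535 over 12) and antimicrobial peptides (0.0498 over 5). The long noncoding RNA *tts-1* was among the genes in which it stood farthest from its group, with 68.0, 925 and 1382 CPM in normoxia and 5063, 2013 and 5171 CPM in hypoxia. Its adjusted p was 0.13 with all libraries and 0.0433 without normoxia replicate 1. Normoxia replicate 1 and hypoxia replicate 2 were the deepest and the shallowest library and had the lowest shares of ribosomal RNA. They held 33841402 and 27210264 counts with 0.671% and 0.919% ribosomal RNA, against 28776925 to 33194018 counts and 1.34 to 3.23% in the other 4, and the part of these differences in the results was not tested.

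In the later exposures, which used other worms and share no library with the first, some of the genes above had the following values, set side by side with no test of the difference. For *phy-2* the log2 fold changes in exposures 2, 3 and 4 were 5.13, 3.03 and 2.49, for *hsp-12.3* they were 3.94, 5.48 and 6.80, and for *hrg-1* they were 3.58, 2.28 and 3.108. For the sperm Argonaute gene *alg-3* they were 2.15, 0.49 and 1.65. The spermatogenesis list, with 40 of 49 genes rising in the first exposure, had 48 of 52, 5 of 48 and 38 of 46 called higher in exposures 2, 3 and 4. In those exposures 37.2%, 12.4% and 27.1% of all genes tested were called higher. The FMRFamide-like neuropeptides, of which edgeR called none with all 6 libraries of the first exposure, had 16 of 30, 0 of 28 and 22 of 30 called higher.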

How the data were processed

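Whole-worm poly(A) RNA was sequenced in 24 libraries, of which the 3 hypoxia and 3 normoxia libraries of the first exposure were compared. Per the labels and the methods, the authors checked reads with FastQC, trimmed them with cutadapt 4.0 at a quality of 30, aligned them with bowtie2 and SAMtools to WS235 and counted them with featureCounts. Other versions, and whether counting used strand, are not given in the sources used here, so overlapping genes on opposite strands cannot be told apart. The deposited unit is raw counts per gene. Tables of fold changes and p-values that the authors made with DESeq2 were not used.

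Counts were tested with edgeR 4.0.16 in R 4.3.3 (trimmed mean of M values normalization, quasi-likelihood F test, no covariates) over the 13171 genes with at least 350 counts summed over 6 libraries, with Benjamini-Hochberg adjustment and a threshold of 0.05. Library totals were 27210264 to 33841402 counts. Between libraries of a group the mean chi-square per gene was 12.41 to 184.1, against about 1 from counting error alone. Abundant genes weigh most in this mean, so it does not describe most genes. The code was tested on simulated data with less spread between libraries than these data and no outlying library. That test does not cover the disagreement of the replicates. Symbols and coordinates came from Ensembl release 115 (WBcel235), with 117 symbols from RefSeq. Alternatives were DESeq2 1.42.0, limma 3.58.1 voom with library weights, other normalizations and filters, a replicate block, 1 fit of 24 libraries and each library left out. The 71 gene lists and the genes to compare were chosen with earlier results of these data known. Named genes were the 10 largest rises and falls with a symbol, separate groups and at least 5 CPM in the higher group, the 3 largest calls of each list with at least 1 CPM, all members of the HIF-1 lists and of lists of at most 12 genes, and the 5 genes in which hypoxia replicate 2 or normoxia replicate 1 stood farthest apart. Not all of these are described. Genes named without a value, to account for a small count, were chosen after their values were seen where this rule does not take them.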

Additional observations from a re-analysis of the deposited data

Results flagged for a closer look

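In 8 genes named above, the 3 hypoxia libraries were below the 3 normoxia libraries in the first exposure and above them in the second. The difference between the exposures was not tested. The naming rule takes genes with large changes in the first exposure, and no count of such reversals over all genes is given. Of all genes tested, 19.7% lay below in this way in the first exposure and 37.2% were called higher in the second. The latter share counts edgeR calls and not genes whose libraries lay apart, so the 2 shares are unlike measures. The log2 fold change went from -4.13 in the first exposure to 1.85 in the second for *irg-1*, from -4.09 to 1.67 for *C34H4.1*, from -5.59 to 2.04 for *parg-2* and from -3.26 to 2.36 for the cytochrome P450 *cyp-14A5*. In these 4 genes normoxia replicate 1 of the first exposure was the lowest of its group. The values were -4.59 and 2.23 for *D1086.3*, -2.35 and 0.52 for the acyl-CoA oxidase *acox-1.5*, -2.98 and 0.18 for *col-120* and -3.09 and 0.97 for *col-88*.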

How the results depend on the processing

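The first exposure gave 1752 rises and 975 falls. Falls depended more on the processing than rises. DESeq2 called 1485 falls, voom with library weights 3848 rises and 3535 falls, and 1 fit of all 24 libraries 2974 rises and 3078 falls. Without both hypoxia replicate 2 and normoxia replicate 1, an alternative chosen after seeing the data, there were 3682 rises and 3194 falls. An unadjusted p under 0.05 gave 2092 falls, and a log2 size of at least 1 as well gave 510. With 1 library left out the counts ranged from 1206 to 2782 rises and from 332 to 2191 falls. The replicate block gave 1350 rises and 494 falls. Deviations of same-numbered libraries from their group means correlated at -0.315, -0.151 and 0.305, and those of differently numbered ones at -0.383 to 0.363. Within a group these deviations depend on each other, so the values cannot decide whether equal numbers mark paired libraries. Rises of at least 2-fold numbered 2000 without a filter, against 1313. Falls of at least 2-fold numbered 1015 without a filter, 811 with voom, 783 in the fit of 24 libraries and 843 without both libraries, against 510, and ranged from 258 to 704 with 1 library left out. On principal component 1 hypoxia replicate 2 stood at 0.884 of the way from the normoxia mean to the mean of the other hypoxia libraries, and at 0.506 with genes scaled to unit variance. The log2 fold change of *lbp-6* was -0.14 with all libraries and 0.27 without both. Of 185 called named genes, 185 kept their calls with DESeq2, 174 with upper-quartile normalization, 126 with the block, 182 without hypoxia replicate 2 and 103 without normoxia replicate 2. The causes were not tested. The promoter motif search and its alternative were not run. With 3 libraries per group, calls near the threshold change with any 1 library.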
